A study of Mus musculus with 9 samples.

Results

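The glucocorticoid receptor gene *Nr3c1* and 7 genes that glucocorticoids are known to induce, *Fkbp5*, *Tsc22d3*, *Per1*, *Sgk1*, *Zbtb16*, *Klf9* and *Errfi1*, were followed through the RNA-seq libraries of a mouse salivary gland epithelial cell line and a mouse oral keratinocyte line. The genes were taken by name, and the 8 entries were found among 23366 gene entries counted in every library. RNA was sequenced from 9 libraries. Of these, 6 came from mSGc, the epithelial cell line that immortalized spontaneously in culture from the submandibular glands of 12-week-old male C57BL/6 mice, grown as monolayers. The other 3 were replicates of IMOK, oral keratinocytes of 12-week-old C57BL/6 mice that also immortalized spontaneously and were labelled as early passage. The mSGc libraries were made at passages P2, P4, P10 and P25 in serum-free medium (SFM) and at P10 and P25 in serum-containing medium (SCM), and each condition has 1 library. Both media hold a glucocorticoid. SFM contained dexamethasone at 1 μM, a synthetic and long-lasting agonist, together with EGF, FGF, insulin and N2 supplement. SCM contained hydrocortisone at 0.4 μg/ml together with serum, retinoic acid, triiodothyronine, EGF, insulin, transferrin and selenite. The labels call the media progenitor and differentiating medium, and these were read as SFM and SCM. The composition of the IMOK medium is not given in the sources used here, and no mSGc library was grown without a glucocorticoid. In bulk RNA, fewer cells expressing a gene and less RNA per cell cannot be told apart.

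The glucocorticoid receptor waits in the cytoplasm in a complex with heat shock proteins and immunophilins. Once it binds its steroid it moves to the nucleus and binds DNA as a dimer, often at an imperfect palindrome called the glucocorticoid response element, where it raises the transcription of a set of early target genes. In salivary gland epithelium glucocorticoids are best known for their use in culture media and for effects on differentiation and on salt transport in the ducts.

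The libraries held 6237884 counts (P25 in SCM) to 17089965 counts (P4) for mSGc and 16848411 to 18444963 for IMOK, and 3 counts, the most that a count of 0 allows, correspond to 0.163 to 0.481 CPM (counts scaled to the library total). Levels are given as TPM, in which each count is divided by the gene's length and scaled to the library, so that levels of different genes can be compared. The epithelial label was checked against basal epithelial markers, and all 5 (*Krt5*, *Krt14*, *Trp63*, *Epcam*, *Cdh1*) reached 1 TPM in every library. The summed level of 7 fibroblast markers was 0.32 to 19.1 TPM in mSGc, with the highest value at P2, and 1.27 to 6.71 in IMOK. Endothelial markers summed to at most 0.945 TPM. Of the leukocyte markers, *Cd3e* was at 0 in all 9 libraries, and the sum was 2.01 to 4.10 TPM in mSGc and 4.86 to 33.95 in IMOK, highest in replicate 1 and carried by *Cd68*.

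The sequence that the receptor prefers was looked for in and around 6 of the genes, since glucocorticoid induction is known to involve such sites. The exact palindrome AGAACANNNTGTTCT, in which N is any base and which reads alike on both strands, occurred 639 times in the autosomes and the X chromosome of mm9, or 0.25 times per megabase. Within 10 kb of the start of a gene, taken as the outermost start of its entry, it was found for 76 of 23213 gene entries (0.327%) and for 0 of the 6 genes searched. Start sites inside a gene, such as the one of *Sgk1* described below, were not used in this count. Within the genes and 10 kb on either side it was found 2 times for *Fkbp5*, in 107 kb searched, and 1 time for *Sgk1*, in 137.7 kb searched, where the genome's density gives 0.027 and 0.034. It was found 0 times for *Tsc22d3*, *Per1*, *Klf9* and *Errfi1*. Only exact matches were searched, so a count of 0 does not show that an imperfect element is absent. The *Fkbp5* matches lie at chr17:28557266-28557280 and chr17:28579364-28579378 (mm9), both in introns, 65.8 and 43.7 kb from the start of the gene. The *Sgk1* match lies at chr10:21713507-21713521 (mm9), in an intron of the longest gene model. The matches are shown on the strand of each gene with 10 bases on either side, and the capitals mark the 2 arms of the palindrome.
Fkbp5 match at 65.8 kb: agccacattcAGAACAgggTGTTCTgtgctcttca
Fkbp5 match at 43.7 kb: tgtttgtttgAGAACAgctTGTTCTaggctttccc
Sgk1 match: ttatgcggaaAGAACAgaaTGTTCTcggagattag

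In RefSeq promoters, taken as 250 bases before to 50 bases after a start site (GRCm38.p6), the same palindrome occurred in 3 of 32851 (0.00913%). Of these, 1 belongs to a start site of *Sgk1* inside the gene, and the palindrome covers bases -189 to -175 from that start. The 250 bases before the start, at chr10:21993640-21993889 on the plus strand of GRCm38.p6, are shown because this is the match of the *Sgk1* gene listed above, with the palindrome's arms in capitals. A match to letters is a description and does not show binding of the receptor in these cells.
Sgk1 promoter: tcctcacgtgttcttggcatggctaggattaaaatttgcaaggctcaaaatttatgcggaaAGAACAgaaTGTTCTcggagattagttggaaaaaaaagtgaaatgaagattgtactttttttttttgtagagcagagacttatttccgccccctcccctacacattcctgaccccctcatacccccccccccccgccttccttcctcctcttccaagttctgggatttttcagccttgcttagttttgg

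All 8 genes were detected in mSGc, but over a wide range of levels. *Sgk1*, *Tsc22d3* and *Fkbp5* were the most abundant, with means of 143.9 ± 29.3, 239.8 ± 266 and 112 ± 51.6 TPM (SD, n = 6 libraries of differing passage and medium), and their median levels lay above those of 91.9%, 91.8% and 88.7% of the genes tested. *Errfi1*, *Per1*, *Nr3c1* and *Klf9* followed with means of 37.2 ± 15.95, 35.6 ± 4.91, 21.6 ± 6.87 and 16.8 ± 8.54 TPM. *Zbtb16* was the lowest at 4.76 ± 4.29 TPM, with a median above that of 20.2% of the genes tested. Neighbours in this order, such as *Errfi1* and *Per1*, differed by less than their spread over the libraries. In IMOK the order was *Tsc22d3* (99.6 ± 59.4 TPM, SD, n = 3), *Sgk1* (80.4 ± 29.4), *Fkbp5* (71.4 ± 11.7), *Klf9* (37.4 ± 15.8), *Errfi1* (33.3 ± 22.0), *Per1* (27.8 ± 6.53), *Nr3c1* (16.2 ± 4.49) and *Zbtb16* (0.504 ± 0.722). The first 3 did not differ beyond their spread, and neither did *Klf9*, *Errfi1* and *Per1*. The plot of the level of each gene by library shows these values.

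**Figure D1:**
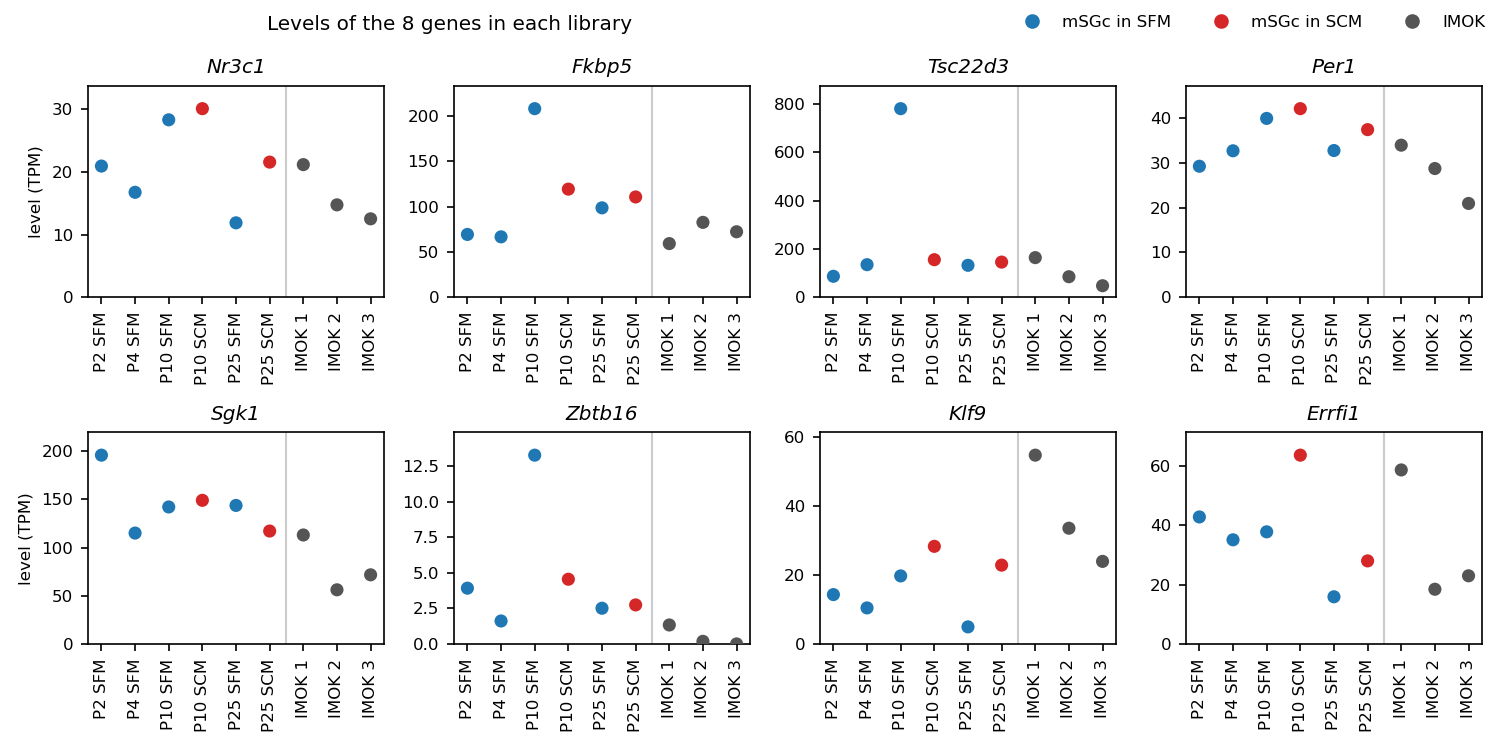
Level in TPM (linear axes from 0, a separate scale for each gene) of the 8 genes in each of the 9 libraries, with mSGc in SFM in blue, mSGc in SCM in red and IMOK in grey. Each point is 1 library. *Fkbp5*, *Tsc22d3* and *Zbtb16* have their highest point in the P10 SFM library, at 207.8, 781.1 and 13.3 TPM.

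*Nr3c1*, the receptor itself, lies on chromosome 18 at 39570199-39646899 on the minus strand (mm9). In SFM its level was 20.96 TPM at P2, 16.77 at P4, 28.34 at P10 and 11.90 at P25, and in SCM it was 30.12 at P10 and 21.59 at P25. The 3 IMOK libraries had 21.19, 14.77 and 12.54 TPM. Both P10 libraries stood above every other library, and the ranges of mSGc and IMOK overlapped. Between the highest and the lowest mSGc library the level differed 2.53-fold, and on the log2(TPM + 1) scale this range exceeded that of 73.4% of the 9910 genes whose mean level in mSGc was 5 TPM or more.

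*Fkbp5* encodes an immunophilin that binds the receptor complex and lowers its affinity for steroid, in a negative feedback loop. The gene lies on chromosome 17 at 28536040-28623057 on the minus strand. Its level was 69.33 TPM at P2, 66.69 at P4, 207.8 at P10 and 98.61 at P25 in SFM, and 119.2 at P10 and 110.6 at P25 in SCM. IMOK had 59.26, 82.62 and 72.29 TPM. The P10 SFM library was 1.74 times the next highest mSGc library, whereas P2 and P4 fell within the range of IMOK.

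*Tsc22d3* encodes GILZ, a leucine zipper protein that mediates part of the anti-inflammatory action of glucocorticoids. It lies on chromosome X at 137074068-137135061 on the minus strand. Its level was 87.41 TPM at P2, 135.5 at P4, 781.1 at P10 and 132.9 at P25 in SFM, and 156.1 at P10 and 146.2 at P25 in SCM. IMOK had 164.7, 85.63 and 48.38 TPM. A single library, P10 in SFM, stood apart at 5.004 times the next highest mSGc library, and the other 5 mSGc libraries lay within 87.41 to 156.1 TPM, inside the range of IMOK. *Tsc22d3* varied more within mSGc than 96.3% of the 9910 genes, the widest of the members compared.

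*Zbtb16* encodes PLZF, a zinc finger transcriptional repressor that is nearly silent in many cells until a steroid is added. It lies on chromosome 9 at 48462402-48644050 on the minus strand. Its level was 3.92 TPM at P2, 1.61 at P4, 13.26 at P10 and 2.51 at P25 in SFM, and 4.54 at P10 and 2.74 at P25 in SCM. In IMOK it was 1.33 TPM in replicate 1 (58 counts), 0.181 in replicate 2 (8 counts) and 0 in replicate 3 (0 counts). P10 in SFM was again the highest library, 2.92 times the next, and every mSGc library lay above every IMOK library.

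*Sgk1*, a kinase that keeps sodium channels and transporters at the cell surface, lies on chromosome 10 at 21601990-21719708 on the plus strand. Its level was 196.0 TPM at P2, 115.1 at P4, 142.2 at P10 and 143.8 at P25 in SFM, and 149.1 at P10 and 117.2 at P25 in SCM. IMOK had 113.1, 56.19 and 71.75 TPM. The P2 library was the highest, P10 in SFM did not stand out, and mSGc and IMOK did not overlap, although P4 in mSGc and replicate 1 of IMOK lay close together.

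*Per1*, a repressor of the circadian clock, lies on chromosome 11 at 68912458-68923459 on the plus strand. It was the steadiest of the 8 genes in mSGc. Its level was 29.20 TPM at P2, 32.64 at P4, 39.85 at P10 and 32.70 at P25 in SFM, and 42.02 at P10 and 37.35 at P25 in SCM. IMOK had 33.89, 28.69 and 20.92 TPM. The highest mSGc library was 1.44 times the lowest, a smaller range than that of most genes (only 13.8% of the 9910 genes varied less), and mSGc and IMOK overlapped through IMOK replicate 1.

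*Klf9*, a zinc finger transcription factor also responsive to thyroid hormone, lies on chromosome 19 at 23215716-23241401 on the plus strand. Its level was 14.30 TPM at P2, 10.44 at P4, 19.72 at P10 and 4.94 at P25 in SFM, and 28.29 at P10 and 22.84 at P25 in SCM. IMOK had 54.73, 33.55 and 23.93 TPM. Both SCM libraries were above all 4 SFM libraries, and the ranges of mSGc and IMOK overlapped only through the P10 SCM library.

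*Errfi1* encodes MIG6, a feedback inhibitor of the EGF receptor. It lies on chromosome 4 at 150229200-150242989 on the plus strand. Its level was 42.76 TPM at P2, 35.06 at P4, 37.75 at P10 and 15.87 at P25 in SFM, and 63.57 at P10 and 27.96 at P25 in SCM. IMOK had 58.59, 18.41 and 22.94 TPM. Both P25 libraries were the lowest of mSGc, and mSGc and IMOK overlapped over most of their range.

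The IMOK replicates also differed among themselves. Replicate 1 was the highest of the 3 for 7 of the 8 genes, by 1.18-fold (*Per1*) to 7.34-fold (*Zbtb16*) over replicate 2, and *Fkbp5* was the exception, at 0.717 of replicate 2. The share of all genes that were highest in replicate 1 was not counted. These TPM ratios were not rescaled by the TMM normalization factors, 1.187, 1.032 and 0.976 for replicates 1, 2 and 3, which would lower replicate 1 against the others. *Errfi1* was 3.18-fold and *Sgk1* 2.01-fold above replicate 2, and *Tsc22d3* was 3.41-fold above replicate 3. The sums of leukocyte (33.95 TPM), fibroblast (6.71) and muscle (1.39) markers were also highest of IMOK in replicate 1, and their part in these differences was not tested.

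The study compared P10 mSGc with a fibroblast line, a B lymphocyte line and IMOK, and states that the IMOK cells were at the same passage number. Of these lines only IMOK is among the libraries used here. Here edgeR's quasi-likelihood test was run on the 2 P10 libraries against the 3 IMOK libraries. None of the 8 genes passed at an adjusted p under 0.05 (0 of 8, against 4.2% of 13018 genes tested), whereas 6 had an unadjusted p under 0.05 and DESeq2 called these 6 (beside 2231 of 12996 genes), *Nr3c1*, *Fkbp5*, *Tsc22d3*, *Per1*, *Sgk1* and *Zbtb16*. The log2 fold change of *Nr3c1* was 1.04 ± 0.22 (SE, adjusted p = 0.0575). It was 1.37 ± 0.36 for *Fkbp5* (adjusted p = 0.0887) and 2.50 ± 0.76 for *Tsc22d3* (adjusted p = 0.119). *Zbtb16* had 4.44 ± 1.47 (adjusted p = 0.14), *Sgk1* 1.05 ± 0.28 (adjusted p = 0.0943) and *Per1* 0.74 ± 0.21 (adjusted p = 0.1). *Errfi1* had 0.81 ± 0.47 (adjusted p = 0.339), and *Klf9* alone was lower in mSGc, at -0.45 ± 0.33 (adjusted p = 0.441). The median over the 8 genes was 1.05, beside -0.01 over all genes tested. The count rested on IMOK replicate 1. Without it 5 of the 8 genes passed, *Nr3c1*, *Per1*, *Sgk1*, *Zbtb16* and *Errfi1*, beside 3416 of 12602 genes tested.

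All 6 mSGc libraries were then set against IMOK as if replicates of the line, so that their differences in medium and passage counted as spread. *Sgk1* and *Per1* were higher in mSGc. These were 2 of the 8 genes, beside 14.9% of 12885 genes tested. *Sgk1* rose by a log2 fold change of 1.07 ± 0.23 (SE, adjusted p = 0.0141) and *Per1* by 0.59 ± 0.17 (adjusted p = 0.0472). *Zbtb16* had the largest difference, 3.51 ± 1.17, and did not pass in edgeR (adjusted p = 0.0695). It passed in DESeq2 (adjusted p = 0.00195) and voom (adjusted p = 0.0407), which each called *Per1*, *Sgk1* and *Zbtb16*, and in edgeR without IMOK replicate 1 (adjusted p = 0.0201). The values were 0.63 ± 0.25 for *Nr3c1* (adjusted p = 0.114), 0.86 ± 0.35 for *Fkbp5* (adjusted p = 0.133), 1.53 ± 0.73 for *Tsc22d3* (adjusted p = 0.189) and 0.38 ± 0.39 for *Errfi1* (adjusted p = 0.563). DESeq2 gave no adjusted p for *Tsc22d3* here, so it was neither called nor passed over by that test. *Klf9* was again on the other side, at -0.96 ± 0.41 (adjusted p = 0.146). The median over the 8 genes was 0.74, beside 0.00 over all genes. The *Per1* call did not last when P4, or any of the P10 and P25 libraries, was left out, and neither call lasted without IMOK replicate 2 or without replicate 3, where *Sgk1* had adjusted p = 0.0743 and 0.0594. With every library in, levels that did not overlap between the lines were found for 2 of the 8 genes, *Sgk1* and *Zbtb16*, beside 22.3% of all genes tested. Without IMOK replicate 1 there were 4, adding *Tsc22d3* and *Per1*. The share of all genes was not counted for that setting, so the 4 have no background beside them. Cell line, medium and experiment cannot be told apart in either comparison with IMOK, and both share the IMOK libraries and the P10 mSGc libraries. With all mSGc libraries, passage is not matched to IMOK either. Of the cell type markers, *Krt14* (1.27, adjusted p = 0.0297) and *Cdh1* (1.29, adjusted p = 0.0132) were higher in all mSGc by edgeR. *Cd68* was lower (-2.26, adjusted p = 0.023).

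**Figure D2:**
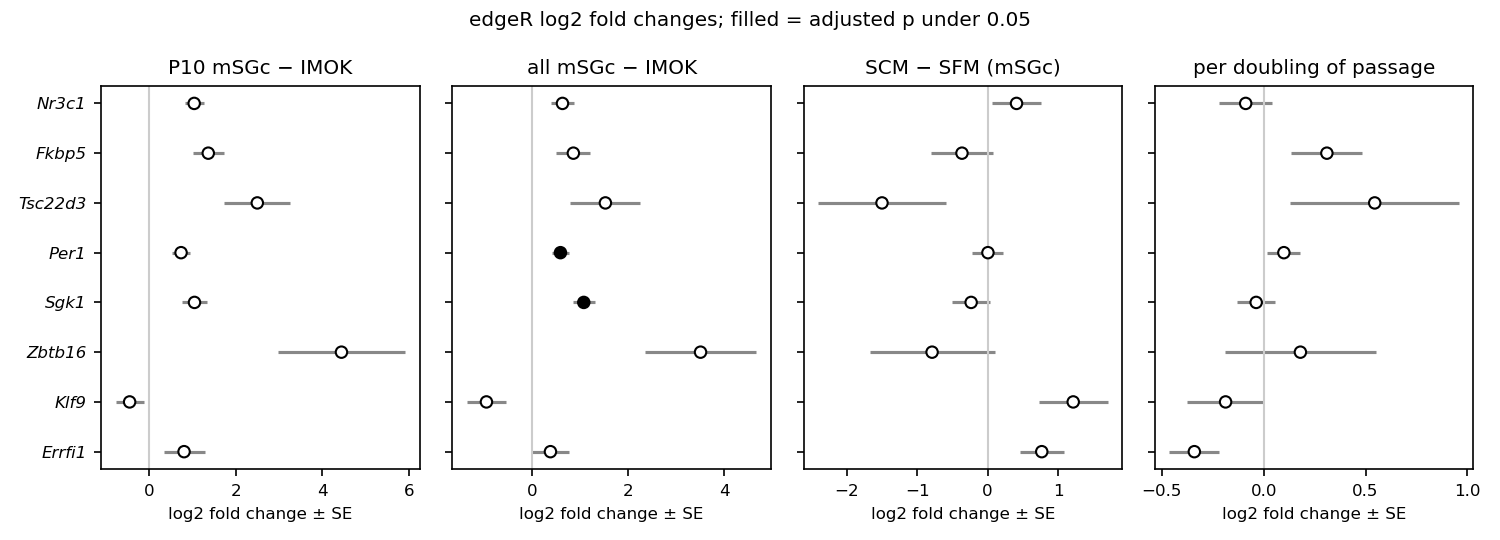
Log2 fold change (x axis) with its standard error (bars) of the 8 genes in 4 comparisons by edgeR, with filled points where the adjusted p was under 0.05. *Sgk1* and *Per1* are filled in the comparison of all mSGc with IMOK (1.07 and 0.59), and the other points are open.

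The media differ in their glucocorticoid, dexamethasone at 1 μM in SFM and hydrocortisone at 0.4 μg/ml in SCM, and these doses need not be equal in effect. They also differ in serum and other additives, and these differences cannot be told apart. In the joint fit of medium and passage over the 6 mSGc libraries, which leaves 3 residual degrees of freedom, 0 of the 8 genes passed, beside 0.0241% of 12451 genes tested. DESeq2 also called 0, and *Klf9* and *Errfi1* were the 2 genes with an unadjusted p under 0.05. *Klf9* was higher in SCM by a log2 fold change of 1.22 ± 0.49 (SE, adjusted p = 0.577) and *Errfi1* by 0.77 ± 0.31 (adjusted p = 0.585). *Nr3c1* had 0.41 ± 0.34 (adjusted p = 0.858), and *Per1* had 0.01 ± 0.22 (adjusted p = 0.997). *Tsc22d3* had the largest difference, -1.50 ± 0.91 (adjusted p = 0.774), followed by *Zbtb16* at -0.79 ± 0.89 (adjusted p = 0.899), *Fkbp5* at -0.36 ± 0.44 (adjusted p = 0.911) and *Sgk1* at -0.23 ± 0.27 (adjusted p = 0.902). The sign of several of these values rested on single libraries. Without P10 in SFM, *Fkbp5* had 0.16 and *Zbtb16* 0.43, and without P25 in SFM *Sgk1* had 0.03 and *Nr3c1* -0.07. *Tsc22d3* stayed below 0 with any library left out, and was at -0.02 without P10 in SFM.

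The pairs at matched passage hold 1 library each, so a difference between media cannot be told apart from one between single libraries. The ratio of CPM in SCM to that in SFM is given with an exact 95% interval that covers counting error only. At P10 the ratio was 0.185 for *Tsc22d3* (0.177 to 0.194), 0.318 for *Zbtb16* (0.259 to 0.388) and 0.532 for *Fkbp5* (0.506 to 0.560), so that SFM was 5.40, 3.15 and 1.88 times SCM. At P25 the same ratios were 1.01 (0.938 to 1.08), 0.999 (0.687 to 1.43) and 1.03 (0.958 to 1.10), each within counting error of 1. The 3 genes thus differed between these libraries beyond counting error at P10 and not detectably at P25.

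*Klf9* and *Errfi1* were higher in SCM at both passages. The ratio for *Klf9* was 1.33 (1.16 to 1.54) at P10 and 4.23 (3.41 to 5.26) at P25, where the SFM library had the lowest level of all 9. For *Errfi1* it was 1.56 (1.41 to 1.73) and 1.61 (1.38 to 1.89). *Nr3c1* had 0.986 (0.901 to 1.08) at P10 and 1.66 (1.47 to 1.88) at P25, and *Sgk1* had 0.973 (0.927 to 1.02) and 0.745 (0.703 to 0.789). *Per1* had 0.978 at P10 and 1.04 at P25. No gene was 2-fold apart in the same direction at both passages on the log2(TPM + 1) scale (0 of 8, beside 2.39% of 12451 genes).

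**Figure D3:**
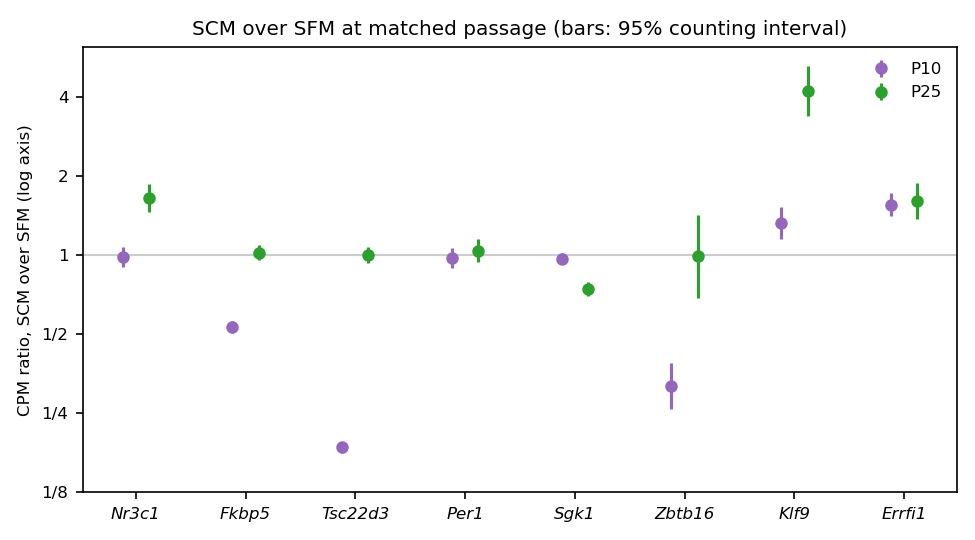
Ratio of CPM in SCM to that in SFM (log axis) for the 8 genes at P10 (purple) and P25 (green), from 1 library per condition, with bars for the 95% interval of counting error. *Tsc22d3*, *Zbtb16* and *Fkbp5* lie at 0.185, 0.318 and 0.532 at P10 and near 1 at P25, and *Klf9* and *Errfi1* lie above 1 at both passages.

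Over passages, 0 of the 8 genes passed in the joint fit, beside 0.49% of 12451 genes, and DESeq2 called 0. *Errfi1* was the 1 gene with an unadjusted p under 0.05, with a log2 change per doubling of passage number of -0.34 ± 0.12 (SE, adjusted p = 0.299). *Tsc22d3* had 0.54 ± 0.41 (adjusted p = 0.622), *Fkbp5* 0.31 ± 0.17 (adjusted p = 0.501), *Zbtb16* 0.18 ± 0.37 (adjusted p = 0.894) and *Per1* 0.10 ± 0.08 (adjusted p = 0.653). *Klf9* had -0.19 ± 0.19 (adjusted p = 0.731), *Nr3c1* -0.09 ± 0.13 (adjusted p = 0.827) and *Sgk1* -0.04 ± 0.09 (adjusted p = 0.91). Between P10 and P25, *Errfi1* was lower at P25 in both media, with CPM ratios of P10 to P25 of 2.24 in SFM and 2.17 in SCM. *Tsc22d3* had ratios of 5.52 and 1.02, *Zbtb16* 4.97 and 1.58, *Klf9* 3.75 and 1.18, *Nr3c1* 2.24 and 1.33, and *Fkbp5* 1.98 and 1.03, so that these 5 differed more between P10 and P25 in SFM than in SCM. The ratios were 0.928 and 1.21 for *Sgk1* and 1.15 and 1.07 for *Per1*.

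The P10 SFM library was the highest of the 6 mSGc libraries for *Fkbp5*, *Tsc22d3* and *Zbtb16*. This was 3 of 8 genes, beside 17.7% of 12451 genes, and the counting was chosen after the levels had been seen. *Nr3c1*, *Per1*, *Klf9* and *Errfi1* were highest in P10 SCM, and *Sgk1* at P2. On the log2(TPM + 1) scale the median over the 8 genes of the P10 SFM level minus the median of the other 5 mSGc libraries was 0.43, beside 0.016 over all genes. *Fkbp5*, *Tsc22d3* and *Zbtb16* were at least 1 above, as were 4.68% of all genes. The fibroblast marker sum in this library was 0.874 TPM and the endothelial 0.152, and the leukocyte sum of 4.10 TPM, all of it *Cd68*, was the highest of mSGc.

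Other known induced targets, a list of 34 genes of which 31 could be tested within mSGc, were highest in the P10 SFM library for 13 (41.9%), with a median difference from the other mSGc libraries of 1.03. A difference of at least 1 was found for 16 of the 31 and of -1 or less for 4. The metallothioneins *Mt1* and *Mt2*, metal-binding proteins, reached 5177 and 5205 TPM there against 1544 to 3484 and 1543 to 3341 in the other mSGc libraries. *Ddit4*, an inhibitor of mTOR signalling, reached 1278 TPM. *Cebpd*, a transcription factor named after its values had been seen, reached 154.2 TPM against 8.46 to 55.1. Not all targets followed. *Dusp1*, a MAP kinase phosphatase, had 5.82 TPM at P10 in SFM and its highest level, 43.98, at P2, and *Anxa1*, an anti-inflammatory annexin also named after its values had been seen, had 3752 TPM against 14660 at P2.

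Against IMOK the same list had 7 genes higher and 0 lower in P10 mSGc, of 30 tested (4.2% of all genes passed in either direction), and a median log2 fold change of 1.53 beside -0.01 over all genes. They were *Mt2* (4.86), *Glul* (4.24, glutamine synthetase), *Cdkn1a* (3.50, the cell cycle inhibitor p21), *Mt1* (3.38), *Ddit4* (2.72), *Pik3r1* (2.12) and *Foxo3* (1.88), with adjusted p-values from 0.0106 to 0.0482. DESeq2 called 13 higher and 0 lower, beside 2231 of 12996 genes in either direction, and with either P10 library left out edgeR called 0 of all genes, these included. In all mSGc against IMOK, 4 of 31 were higher and 0 lower, a share no larger than the 14.9% of all genes that passed. They were *Mt2* (4.58), *Cdkn1a* (3.39), *Mt1* (3.12) and *Ddit4* (2.11), each passing edgeR's test, with a median of 1.15 beside 0.00 over all genes. Several of them, such as *Cdkn1a* and the metallothioneins, are known to answer to other signals as well.

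**Figure D4:**
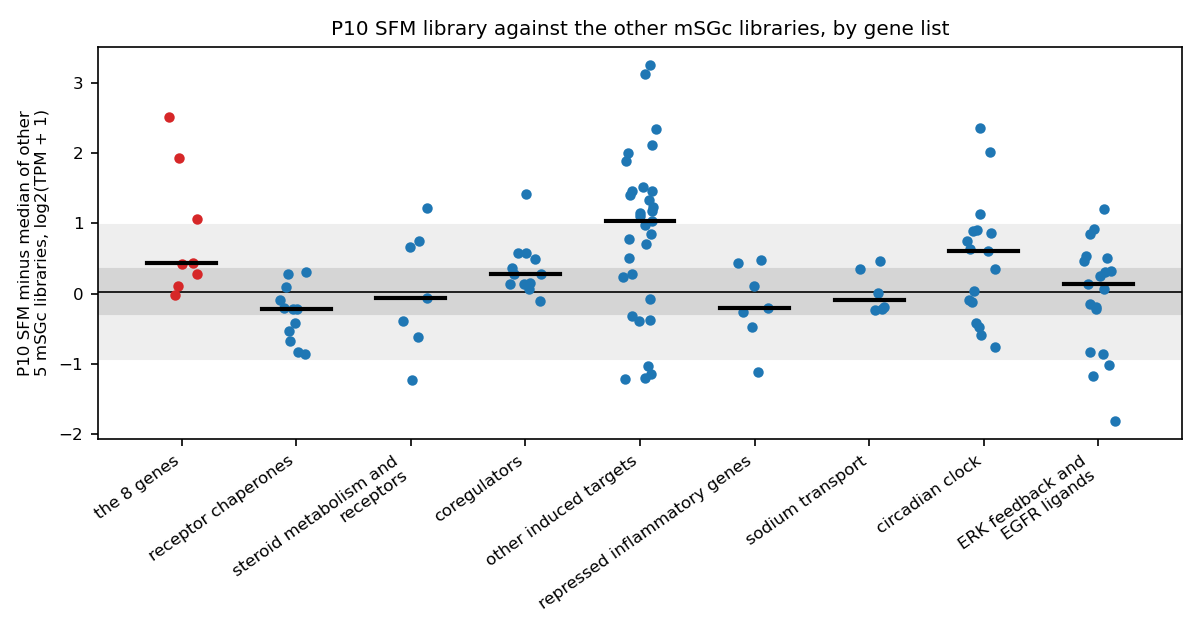
Level in the P10 SFM library minus the median of the other 5 mSGc libraries, in log2(TPM + 1), for the 8 genes (red) and 8 lists of related genes (blue), with a thick line at each median. The thin line is the median of all 12451 genes (0.016), and the grey bands hold the middle 50% and 90% of them. The median was 1.03 for other induced targets, 0.60 for clock genes and 0.43 for the 8 genes.

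Genes that act before or with the receptor were listed as well. Over all genes tested, in either direction, 4.2% of 13018 passed in P10 mSGc against IMOK and 14.9% of 12885 in all mSGc. The calls in the lists that follow are to be read beside these shares. Of the 12 chaperone and immunophilin genes, *Dnajb1*, an Hsp40 cochaperone, was higher in all mSGc than in IMOK (log2 fold change 1.01, adjusted p = 0.0295), 11 did not pass, and 1 of the 12 was highest in P10 SFM. *Hsd11b1*, the enzyme that regenerates active glucocorticoid from its inert 11-keto form, was lower in mSGc. It had 13.2 to 16.8 TPM in IMOK and 0 to 2.22 in mSGc, a log2 fold change of -3.83 for all mSGc (adjusted p = 0.024) and -3.05 for P10 (adjusted p = 0.0369), and it was the 1 gene of 7 steroid metabolism and receptor genes tested to pass. *Nr3c2*, the mineralocorticoid receptor, which also binds glucocorticoids and was named after its values had been seen, had 6.15 TPM at P2, 0.763 at P4, 0.692 at P10 and 0.0576 at P25 in SFM, and 9.63 at P10 and 0.312 at P25 in SCM. Among 12 coregulators, *Nrip1*, a corepressor of nuclear receptors, was higher in P10 mSGc than in IMOK (1.79, adjusted p = 0.0405) and *Med1*, a Mediator subunit, lower in all mSGc (-0.61, adjusted p = 0.0139). Of these 12, 11 had their highest mSGc level in P10 SCM, as had *Nr3c1*, beside 3136 of all 12451 genes.

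Inflammatory genes that glucocorticoids are known to repress were mixed. Of 18 listed, 8 had enough counts to be tested in each comparison with IMOK. In all mSGc the prostaglandin synthase gene *Ptgs2* (2.13) and the chemokine gene *Cxcl1* (1.33) were higher and *Il23a* was lower (-4.93), beside 14.9% of all genes tested. DESeq2 called 4 higher and 1 lower there, beside 2900 of 12739 genes. Within mSGc, 0 of the 7 tested were highest in P10 SFM. In P10 mSGc *Cxcl1* was the 1 gene that passed edgeR's test, at 1.56, beside 4.2% of all genes. DESeq2 called *Cxcl1* and *Icam1* higher and *Il23a* and *Vcam1* lower there, beside 2231 of 12996 genes. *Tnf*, *Ccl2* and *Mmp9* were not tested and are named after their values had been seen. They had 0 counts in every IMOK library and their highest levels, 1.40, 27.66 and 7.28 TPM, at P2. Of the sodium transport genes that *Sgk1* is known to act on, 0 of 6 passed edgeR's test in any comparison. An unadjusted p under 0.05 was found for 1 (P10 mSGc against IMOK), 2 (all mSGc against IMOK), 3 (medium) and 1 (passage) of them, and DESeq2 called 1, 1, 2 and 0. Of the 6, 5 were highest in P10 SCM, beside 3136 of all 12451 genes. *Atp1b3*, a regulatory subunit of the sodium pump, had 220.3 to 305.4 TPM in mSGc, and *Atp1b1*, another, had 20.65 to 243.7.

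Of 17 clock genes, the wider family around *Per1*, 0 passed in any comparison by edgeR, with 2 at an unadjusted p under 0.05 in each comparison with IMOK and 1 in each of the others. DESeq2 called 0 for P10 mSGc and 1 in each of the other 3 comparisons. The most abundant were *Bhlhe40* (31.56 to 108.8 TPM in mSGc), *Clock* (25.41 to 52.05) and *Arntl* (21.96 to 37.01). The P10 SFM library was the highest for 7 of the 17 (41.2%, beside 17.7% of all genes), with a median difference of 0.60. *Nr1d1*, a clock repressor named after its values had been seen, reached 50.49 TPM there against 8.36 to 23.2. Around *Errfi1*, 19 genes of ERK feedback and EGF receptor ligands held 1 higher and 1 lower in P10 mSGc and 1 higher and 2 lower in all mSGc. Of all genes tested, 4.2% and 14.9% passed in these comparisons, in either direction. The ligand gene *Ereg* had 0, 0 and 2 counts in IMOK and 11.78 to 35.31 TPM in mSGc, at least 277.9-fold higher in mean CPM against a floor of 3 counts per library. *Lrig1*, an inhibitor of EGF receptor family kinases, was lower in P10 mSGc (-1.83, adjusted p = 0.0282), and *Spred1* (-1.15) and *Tgfa* (-0.94) were lower in all mSGc. Between media 0 of the 111 genes of these lists that were tested passed edgeR's test, 20 had an unadjusted p under 0.05 and DESeq2 called 7. Over passages *Dusp1* fell by 1.02 on the log2 scale per doubling (adjusted p = 0.0386). Without P2, its highest library and the one with the highest fibroblast marker sum, or without P25 in SFM, edgeR called 0 of all genes for passage, *Dusp1* included, and the part of fibroblasts in it was not tested.

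The genes with the most similar pattern over the 6 mSGc libraries, by Pearson's r of log2(TPM + 1) among 8661 genes, were *Dsc2* for *Nr3c1* (r = 0.9997), *Abca2* for *Fkbp5* (0.984), *Lonp1* for *Tsc22d3* (0.995), *Mkrn2* for *Per1* (0.996), *Tspan7* for *Sgk1* (0.982), *Rpap2* for *Zbtb16* (0.991), *Apobec3* for *Klf9* (0.994) and *Usp25* for *Errfi1* (0.996). With 6 points that share library, medium and depth such values are common, and r exceeded 0.95 for 11 genes (*Sgk1*) to 155 genes (*Nr3c1*). Among the members, *Nr3c1* had r = 0.943 with *Klf9* and 0.848 with *Errfi1*, and *Klf9* and *Errfi1* had 0.788. *Fkbp5* and *Tsc22d3* had 0.895, *Fkbp5* and *Zbtb16* 0.845 and *Tsc22d3* and *Zbtb16* 0.839, these 3 pairs with the P10 SFM library as their common high point. No other pair was above 0.786 (*Fkbp5* and *Per1*).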

How the data were processed

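The authors aligned the reads to mm9 and deposited gene-level read counts without normalization, in a table for each cell line. The submitters' processing notes name TopHat2 2.1.1, Bowtie2 2.2.6, featureCounts 1.5.1 and DESeq2 1.12.4. The annotation, strandedness and treatment of reads that map to several places are not given in the sources used here, so genes with overlapping neighbours are uncertain. Libraries were of total RNA prepared with the TruSeq kit. Of 23366 entries, 27 have names turned into dates and 2 repeat a name. All per-sample columns were matched to a sample.

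Lengths in the same tables gave TPM. Counts were tested in R 4.3.3 with edgeR 4.0.16 (quasi-likelihood test, TMM, default filterByExpr, Benjamini-Hochberg adjustment over all genes tested at 0.05), and every adjusted p-value comes from it unless DESeq2 1.42.0 or limma 3.58.1 is named. A standard error is the size of the log2 fold change over the square root of its F statistic. The fits held P10 mSGc and IMOK, all mSGc and IMOK, or the 6 mSGc libraries with medium and log2 passage number. The fitting code was run on simulated counts with large known changes in well-counted genes. All genes shared the same dispersion there and no library stood apart, unlike these data, so that check does not bear on the calls given here. Nothing says that the IMOK libraries came from separate cultures, so their spread may be technical. The fits against IMOK took single mSGc libraries of differing medium or passage as replicates. Their p-values thus measure the spread between these libraries, conditions included. Intervals and limits cover counting error only. Descriptions used scipy 1.17.1, numpy 2.4.6 and pandas 2.3.3 under Python 3.11.15.

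The 8 genes and the 13 other lists (156 genes, written from general knowledge) were chosen with earlier results of these data known. From each list but those of cell type markers, the text names every gene that passed edgeR's test and otherwise up to 3 of the most abundant. Other names are marked as chosen after their values were seen. A gene that this rule names is not reported here. The search for response elements was chosen after the data had been seen. Similar genes had at least 10 counts and 5 TPM in every mSGc library, and the rule took 2 per member, of which the closest is given. Promoters are RefSeq's on GRCm38.p6 and matched 6 of the 8 genes, all but *Nr3c1* and *Zbtb16*. Alternatives were DESeq2, voom, no TMM factors, other filters and pseudocounts, leaving out each library, untransformed passage, and P10 and P25 only.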

Additional observations from a re-analysis of the deposited data

Results flagged for a closer look

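On the log2(TPM + 1) scale, for 4 of the 8 genes the difference between the media went in opposite directions at P10 and at P25, with 1 library per condition, so the difference was not tested. The SCM minus SFM value at P10 lay below that at P25 for *Tsc22d3* (by -2.453), *Zbtb16* (by -1.456) and *Fkbp5* (by -0.9601), and above it for *Sgk1* (by 0.362). The P25 ratios of *Tsc22d3*, *Zbtb16* and *Fkbp5* were within counting error of 1 on the CPM scale. Which genes went in opposite directions depended on the scale. In CPM, *Sgk1* (0.973 at P10 and 0.745 at P25) and *Zbtb16* (0.318 and 0.999) lay below 1 at both passages, whereas *Nr3c1* (0.986 and 1.66) and *Per1* (0.978 and 1.04) lay on either side of it, as did *Fkbp5* and *Tsc22d3*. No group held 4 libraries or more, so no library was tested as an outlier.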

How the results depend on the processing

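For P10 mSGc against IMOK, DESeq2 called 6 of the 8 genes and leaving out 1 library gave 0 to 5, with 5 without IMOK replicate 1. For all mSGc against IMOK the count was 1 (*Sgk1*) without TMM factors, without a filter and with at least 10 counts in every library, 3 with DESeq2 and with voom (*Per1*, *Sgk1*, *Zbtb16*), and 0 to 3 when 1 library was left out. Genes whose levels did not overlap between the lines numbered 2 to 4 when 1 library was left out, and the share of all genes was not counted for these settings. For passage, P10 and P25 only gave 1 call, *Errfi1* (-1.05, adjusted p = 0.0358), beside 915 of 11938 genes. Over all genes, DESeq2 called 2231, 2900, 271 and 700 for P10 mSGc against IMOK, all mSGc against IMOK, medium and passage, where edgeR called 547, 1918, 3 and 61. Without P10 in SFM edgeR called 0 in the first, 58 for medium and 329 for passage, and for passage it called 0 without P2 and 0 without P25 in SFM.

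Between media the sign of *Per1* turned to -0.0047 without a filter, -0.0026 with at least 10 counts and -0.016 in P10 and P25 only. Leaving out 1 library moved it from -0.15 to 0.0698, *Fkbp5* from -0.95 to 0.16, *Zbtb16* from -1.62 to 0.43, *Nr3c1* from -0.0655 to 0.76 and *Sgk1* from -0.33 to 0.0268. Per doubling of passage, leaving out 1 library moved *Sgk1* from -0.14 to 0.0919, *Zbtb16* from -0.0823 to 0.62, *Nr3c1* from -0.18 to 0.13 and *Klf9* from -0.33 to 0.18. With passage untransformed *Zbtb16* had -0.016. In P10 and P25 only, *Fkbp5* had -0.42, *Tsc22d3* -1.16, *Per1* -0.055, *Sgk1* 0.0079 and *Zbtb16* -1.44 from P10 to P25. The cause was not tested. Of the values of single genes under the alternatives, 352 kept their direction and their side of the threshold, 19 turned, 15 newly passed and 12 no longer passed. A value without an adjusted p was counted as kept if its direction held. Each mSGc condition has 1 library, so the joint fit takes its spread from 3 residual degrees of freedom, and a lone P10 library was assumed to vary like IMOK. Replicate numbers pair no libraries. The media are paired by passage at P10 and P25, and the fit of those 4 libraries with passage as a factor called 0 of the 8 genes and 123 of 11938 genes.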
